A study of Rattus norvegicus with 16 samples.

Results

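Genes of protein folding, collagen maturation and export in the endoplasmic reticulum (ER) were examined in rat tendon: ER chaperones, protein disulfide isomerases, procollagen modifying proteins, ER stress sensors with their transcription factors, and proteins of the vesicle coat COPII and of retrieval. They were chosen by gene symbol from a list of 40, of which 38 were found among 23285 genes in the deposited count table, and all 38 passed the filter on low counts. Crtap and Mia3 were not matched by symbol and are not analysed here as members. A row named Crtapl1 (ENSRNOG00000009878), which RefSeq lists as a synonym of Crtap, is described apart and is in none of the counts. Total RNA of Sprague Dawley rats was sequenced from 2 hindlimb tendons, the Achilles and the patellar, and from 2 forelimb tendons, the forepaw flexors and the supraspinatus of the shoulder. There were 4 libraries of each, 16 in all, and the labels name no treatment, genotype or age. Library totals ran from 63397591 to 102491699 counts, and the lowest count of any of the 38 genes in a library was 514. The titles end in Rat and a number within each tendon. They do not say whether a number marks a separate animal, or the same animal across tendons. P-values therefore measure only the spread between these samples, which may be technical.

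Procollagen chains enter the ER as they are translated, are hydroxylated and glycosylated there, and fold into a triple helix from their C-terminal end. General chaperones such as BiP and GRP94 serve all secreted proteins. By contrast, the collagen chaperone HSP47, the prolyl 3-hydroxylase family and some FKBP proteins of the ER act largely on procollagen. When unfolded protein accumulates, the sensors IRE1, ATF6 and PERK raise ER chaperones through transcription factors that include XBP1, ATF6 itself and ATF4. Folded procollagen leaves the ER in COPII carriers, and escaped ER proteins are brought back by KDEL receptors. Tendon fibroblasts secrete large amounts of type I collagen, whose main chain is encoded by Col1a1.

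RefSeq promoters (build GRCr8, 250 bases before and 50 after each gene's start) were matched by symbol to 30 of the 38 genes. They are shown because several chaperone genes of this group carry the textbook ER stress response element (ERSE). The letters searched on both strands were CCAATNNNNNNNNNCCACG for ERSE, ATTGGNCCACG for its second form ERSE-II, TGACGTG for the core of the unfolded protein response element, and GAANNTTCNNGAA for a heat shock element. Capitals mark the matches. The stretches lie upstream of the gene start and read 5′ to 3′ on the strand of the gene.
Hspa5: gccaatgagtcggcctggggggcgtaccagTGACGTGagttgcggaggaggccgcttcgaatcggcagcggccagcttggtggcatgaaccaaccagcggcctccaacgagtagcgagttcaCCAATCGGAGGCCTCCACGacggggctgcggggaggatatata
Hsp90b1: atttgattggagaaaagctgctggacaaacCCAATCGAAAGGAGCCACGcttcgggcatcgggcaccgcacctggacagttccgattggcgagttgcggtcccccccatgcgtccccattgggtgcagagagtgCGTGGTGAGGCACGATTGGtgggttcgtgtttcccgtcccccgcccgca
Calr: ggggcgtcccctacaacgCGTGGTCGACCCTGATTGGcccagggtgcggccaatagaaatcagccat
Canx: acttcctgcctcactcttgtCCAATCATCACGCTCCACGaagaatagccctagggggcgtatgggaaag
Creld2: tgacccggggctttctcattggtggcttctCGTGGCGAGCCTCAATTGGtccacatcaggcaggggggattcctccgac
Xbp1: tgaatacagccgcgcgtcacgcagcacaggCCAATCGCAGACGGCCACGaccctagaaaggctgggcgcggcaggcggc
Hyou1: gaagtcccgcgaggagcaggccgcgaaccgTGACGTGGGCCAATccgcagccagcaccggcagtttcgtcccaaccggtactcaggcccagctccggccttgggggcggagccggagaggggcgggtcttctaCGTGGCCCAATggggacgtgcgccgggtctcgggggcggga
Serpinh1: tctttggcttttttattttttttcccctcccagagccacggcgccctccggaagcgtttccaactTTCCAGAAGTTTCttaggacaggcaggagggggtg

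The stretches are, on GRCr8, chr3:38452851-38453015 (plus strand) for Hspa5, chr7:23012317-23012499 (minus) for Hsp90b1, chr19:40213117-40213183 (plus) for Calr and chr10:35158039-35158107 (minus) for Canx. Those of Creld2, Xbp1, Hyou1 and Serpinh1 are chr7:121789209-121789287 (plus), chr14:84604528-84604606 (plus), chr8:53602661-53602834 (plus) and chr1:163062977-163063076 (minus). ERSE was in the promoters of Hspa5, Hsp90b1, Calr, Canx, Creld2 and Xbp1, against 0.0657% of 33469 RefSeq promoters of the same length. ERSE-II was in Hyou1 and, across the gene start, in Dnajb11, against 0.0508% of all promoters. The core TGACGTG was in Hspa5, Hyou1, Kdelr3 and Sec23a, against 1.81%, and in Hyou1 it overlaps an ERSE-II match. Serpinh1 held a heat shock element, found in 0.798% of all promoters. A match describes letters only, no match says nothing of a factor, and the counts were made on another build, rn6.

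Col1a1 (ENSRNOG00000003897) set the reference for collagen output. Levels are in CPM, which scales each gene's counts to the size of its library after TMM, edgeR's correction for libraries dominated by a few genes. Col1a1 stood at 57100, 108000, 60400 and 117000 CPM in Achilles libraries 1 to 4 and at 47100, 65000, 76700 and 101000 CPM in the patellar libraries. It stood at 19800, 29000, 24900 and 17200 CPM in the flexor libraries and at 50200, 55400, 34400 and 26700 CPM in the supraspinatus libraries. Every flexor library was below every hindlimb library, while the highest flexor library overlapped the lowest supraspinatus library. The Achilles tendon exceeded the flexors by 1.91 ± 0.34 and the supraspinatus tendon by 1.04 ± 0.33 on the log2 scale (± SE, edgeR's quasi-likelihood test, n = 4 libraries a tendon, adjusted p = 0.00038 and 0.018). All p-values below come from that test unless another is named, adjusted by the Benjamini-Hochberg method over 16948 genes, with 0.05 as the threshold.

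Tissue makeup differed between the tendons and moved with the group. The summed level of the 20 skeletal muscle markers found of 25 was 13.4 to 25.1% of the scaled total in supraspinatus libraries and 1.69 to 6.31% in flexor libraries. It was 0.0371 to 1.18% in Achilles libraries and 0.0352 to 0.451% in patellar libraries other than patellar 1, which had 3.26%. Adipocyte markers (9 found, Pnpla2 at 0 in the flexors) ran from 0.289 to 1.17% in the hindlimb tendons and from 0.0167 to 0.0856% in the forelimb tendons. Schwann cell markers were at 0.744% in Achilles 1 and 0.0885 to 0.106% in the other Achilles libraries. They were at 0.2 to 0.359% in flexor, 0.0597 to 0.101% in patellar and 0.059 to 0.0683% in supraspinatus libraries. The 7 tendon fibroblast genes, Col1a1 included, summed to 6.07 to 12.9% in Achilles, 5.06 to 10.7% in patellar, 2.38 to 3.72% in flexor and 3.53 to 6.98% in supraspinatus libraries. Col1a1 made up most of that sum, with means of 85700, 72600, 22700 and 41700 CPM in the same order. Between Achilles and flexor tendon the median log2 difference of the 7 was 0.05, and only Col1a1 passed the threshold. The forelimb tendons had 2 of the 7 higher and 1 lower than the hindlimb tendons. In bulk tissue, fewer cells of a type and less RNA per cell cannot be told apart, and the part of these cell types in the results below was not tested. A fit with the muscle level as a covariate was run, but that level went with the tendon, so the fit cannot separate them.

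Across the 4 tendons, 22 of the 38 genes differed, against 75.6% of all genes tested, so the share of these genes was below that of the background. The roles divided unevenly. Differences were found in 9 of 10 procollagen folding and modifying genes, 5 of 7 stress sensors and transcription factors, 4 of 6 COPII and retrieval genes, and the 1 degradation gene Sel1l. They were found in 2 of 10 chaperones and 1 of 4 protein disulfide isomerases. The difference between roles was not tested.

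**Figure D1:**
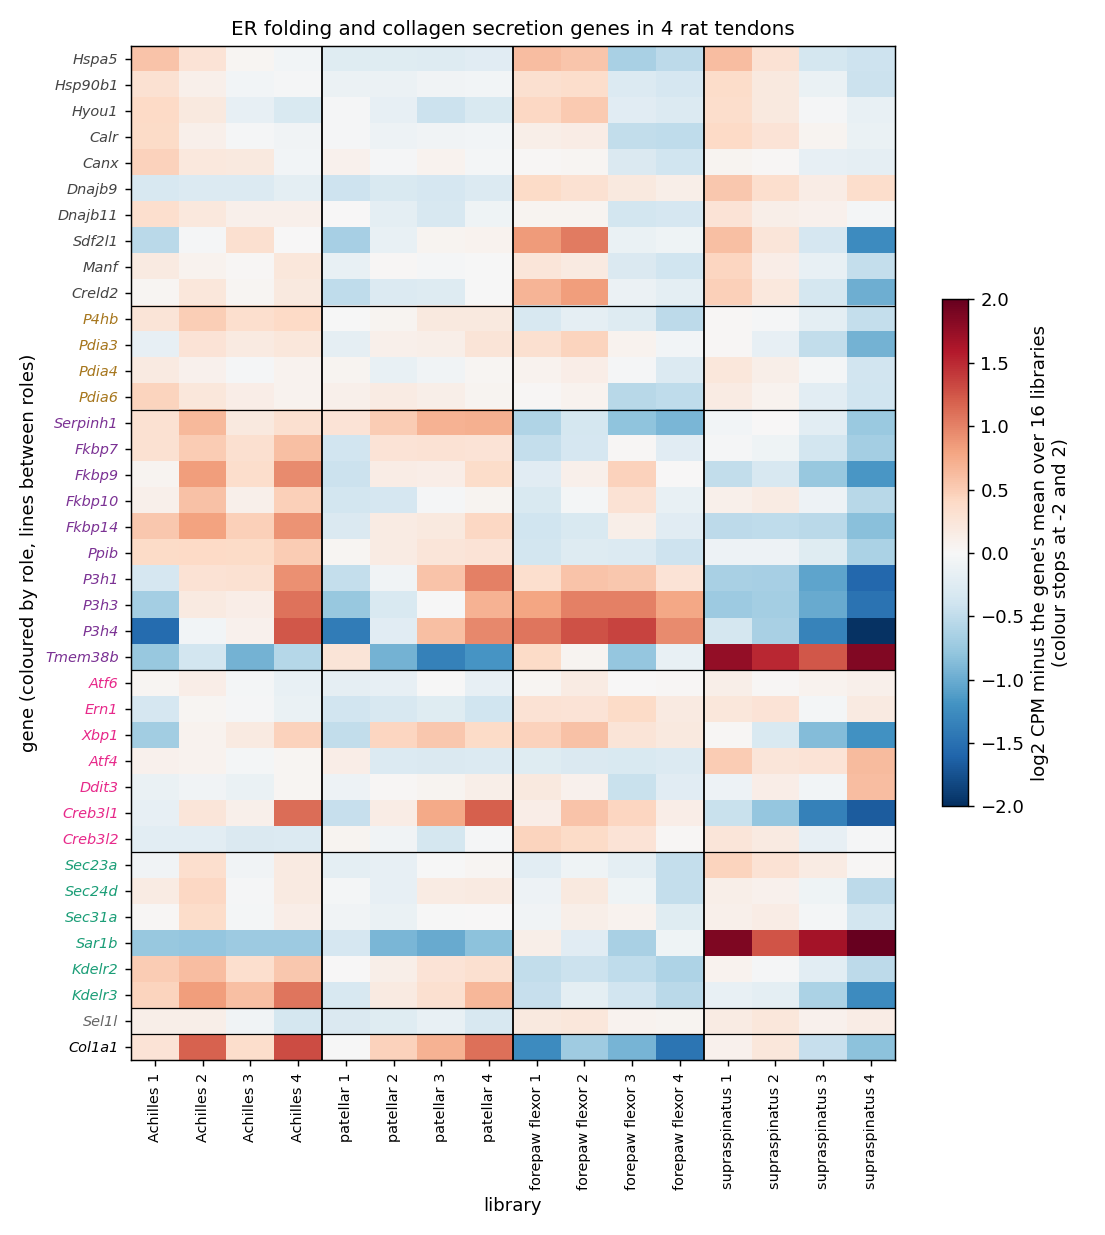
Heat map of the log2 CPM of each of the 38 genes and of Col1a1 (rows, lines between roles) in each of the 16 libraries (columns), each gene set to its own mean, with the colour stopping at -2 and 2. Tmem38b and Sar1b are highest in the 4 supraspinatus libraries, P3h1, P3h3 and P3h4 are low there, and in the chaperone rows at the top flexor 1 and 2 are above flexor 3 and 4.

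Of the 10 chaperones, 8 did not differ past the threshold among the 4 tendons. Of these 8, Canx passed with DESeq2 (adjusted p = 0.032), without TMM (0.0034) and without Achilles 4 (0.034). Canx and Hyou1 also passed in a fit that blocked on the library number. Hspa5 (ENSRNOG00000018294) encodes BiP, the main ER member of the Hsp70 family. It was at 900, 734, 622 and 588 CPM in Achilles, 513, 512, 506 and 518 CPM in patellar, 932, 896, 389 and 424 CPM in flexor and 935, 744, 478 and 455 CPM in supraspinatus libraries. Libraries 1 and 2 were above 3 and 4 in the flexors, the supraspinatus tendon and, by less, the Achilles, while the patellar libraries lay close together inside the range of the others (adjusted p = 0.47 among the 4 tendons). In all 10 chaperones flexor 1 and 2 were above flexor 3 and 4, against 25.5% of the 14742 genes that reached 1 CPM, and in 9, Dnajb9 being the exception, supraspinatus 1 and 2 were above 3 and 4, against 21.2%. The same held for 6 in the Achilles, against 22.1%, and for 1 in the patellar tendon, against 21.0%. All 10 had their highest supraspinatus value in library 1, and all 10 had their highest flexor value in library 1 or 2. Among the 14742 genes, 21.2% were highest in supraspinatus 1, and 24.3 and 24.1% were highest in flexor 1 and 2.

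Hsp90b1, which encodes GRP94, had means of 495 ± 58.9, 438 ± 9.3, 484 ± 123 and 475 ± 113 CPM (SD, n = 4) in Achilles, patellar, flexor and supraspinatus tendon, in that order (adjusted p = 0.82). The lectin chaperone Calr had means of 492 ± 72.6, 439 ± 9.03, 413 ± 104 and 512 ± 83.2 CPM (adjusted p = 0.31). Hyou1, Sdf2l1, Manf and Creld2, which act beside BiP or are induced with it, had adjusted p-values of 0.31, 0.29, 0.76 and 0.2. Canx, the membrane-bound lectin chaperone, had 793, 665, 657 and 557 CPM in Achilles and 584, 590, 473 and 437 CPM in flexor libraries. It had 610, 570, 602 and 559 CPM in patellar and 600, 583, 514 and 509 CPM in supraspinatus libraries, with an adjusted p of 0.085 among the 4 tendons. A p over the threshold does not show that these levels were equal.

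Dnajb9 (ENSRNOG00000004006), a BiP co-chaperone that restrains IRE1, was higher in both forelimb tendons. It stood at 87.9, 83.3, 76.9 and 72.6 CPM in flexor and 97.9, 85.1, 74.3 and 85.5 CPM in supraspinatus libraries. It stood at 53.6, 55.3, 55.4 and 58.5 CPM in Achilles and 50.6, 54.4, 53.2 and 55.3 CPM in patellar libraries. No forelimb library overlapped a hindlimb library, and the mean of the forelimb tendons exceeded that of the hindlimb tendons by 0.60 ± 0.061 on the log2 scale (adjusted p = 1.3e-06). Dnajb11, another BiP co-chaperone, stood at 104, 95.4, 87.8 and 87.9 CPM in Achilles, 82.9, 71.9, 65.4 and 77.1 in patellar, 84.9, 84.8, 63.8 and 64.7 in flexor and 99.1, 89, 87.3 and 80.1 CPM in supraspinatus libraries. Its difference among tendons (adjusted p = 0.028) passed in every fit that left out 1 library except the fit without Achilles 1 (adjusted p = 0.061).

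P4hb, which encodes protein disulfide isomerase and the β subunit of collagen prolyl 4-hydroxylase, was the isomerase gene that differed among tendons (adjusted p = 0.00071). Its values were 1010, 1190, 1060 and 1110 CPM in Achilles, 836, 878, 969 and 963 CPM in patellar, 677, 746, 703 and 587 CPM in flexor and 856, 833, 740 and 609 CPM in supraspinatus libraries. The Achilles libraries were all above those of the other tendons, and the flexors were lower than the Achilles by 0.69 ± 0.12 on the log2 scale (adjusted p = 0.0004). Pdia3, the partner of calnexin and calreticulin, fell short of the threshold (adjusted p = 0.057). It stood at 407, 555, 520 and 537 CPM in Achilles, 405, 489, 495 and 544 in patellar, 572, 620, 478 and 438 in flexor and 463, 407, 326 and 237 CPM in supraspinatus libraries. Its lowest 2 libraries were supraspinatus 3 and 4, and without Achilles 1 or without supraspinatus 1 it passed. It also passed with DESeq2, with limma-voom and without TMM.

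Pdia6 stood at 376, 322, 300 and 289 CPM in Achilles, 296, 306, 299 and 285 in patellar, 281, 287, 187 and 193 in flexor and 309, 289, 238 and 208 CPM in supraspinatus libraries (adjusted p = 0.081). Flexor 3 and 4 were the lowest, and without flexor 1 or without flexor 2 it passed. Pdia6 also passed with DESeq2, without TMM and in a fit that blocked on the library number. Pdia4 stood at 283, 268, 248 and 262 CPM in Achilles, 259, 227, 238 and 257 in patellar, 262, 276, 248 and 208 in flexor and 293, 272, 243 and 192 CPM in supraspinatus libraries. Its ranges overlapped in every pair of tendons (adjusted p = 0.82), though without TMM it passed.

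The procollagen folding genes fell into 3 descriptive patterns. In the first, levels were highest in the hindlimb tendons, where Col1a1 was also high. Serpinh1 (ENSRNOG00000016831) encodes HSP47, the chaperone that binds the procollagen triple helix. It stood at 1230, 1570, 1140 and 1250 CPM in Achilles and 1200, 1410, 1610 and 1630 CPM in patellar libraries. It stood at 656, 778, 570 and 525 CPM in flexor and 960, 996, 861 and 592 CPM in supraspinatus libraries. Every hindlimb library was above every forelimb library, and the flexors were lower than the patellar tendon by 1.21 ± 0.18 on the log2 scale (adjusted p = 8.6e-05).

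Ppib encodes cyclophilin B, a prolyl isomerase that works in a complex with P3h1 and Crtap. It stood at 374, 381, 378 and 408 CPM in Achilles, 295, 323, 342 and 350 in patellar, 223, 242, 238 and 216 in flexor and 270, 267, 243 and 185 CPM in supraspinatus libraries. No Achilles library overlapped any other tendon, and no hindlimb library overlapped a forelimb library (forelimb lower by 0.59 ± 0.079 on the log2 scale, adjusted p = 1.7e-05). Fkbp14, a prolyl isomerase for collagens, had 70.7, 85.2, 68.3 and 91.3 CPM in Achilles, 40, 54.8, 55.8 and 65.4 in patellar, 37.2, 39.6, 52.9 and 41.7 in flexor and 34.1, 34.4, 33.8 and 27.3 CPM in supraspinatus libraries. The order was Achilles, patellar, flexor and supraspinatus, of which the Achilles exceeded the supraspinatus tendon by 1.28 ± 0.15 (adjusted p = 1.6e-05) and neither the Achilles and patellar (adjusted p = 0.053) nor the patellar and flexor tendons (0.08) differed past the threshold. Fkbp7 was lower in the forelimb tendons by 0.54 ± 0.12 (adjusted p = 0.0013). Fkbp7's difference among tendons (adjusted p = 0.0039) did not pass with the muscle covariate. Fkbp9 was at 925 ± 256, 649 ± 141, 659 ± 136 and 390 ± 93.7 CPM in Achilles, patellar, flexor and supraspinatus tendon. Its forelimb tendons were lower by 0.61 ± 0.17 (adjusted p = 0.0058), but the flexor and patellar tendons did not differ past the threshold (0.02 ± 0.24, adjusted p = 0.95), and the low values were those of the supraspinatus tendon.

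In the second pattern, mean levels were lowest in the supraspinatus tendon and at least as high in the flexors as in the hindlimb tendons, while Col1a1 was lowest in the flexors. The 3 genes are the prolyl 3-hydroxylase P3h1, its relative P3h3, and P3h4, which acts in a complex with lysyl hydroxylase. P3h1 stood at 48.5 ± 17.1 CPM in Achilles, 48.7 ± 21.7 in patellar, 51.2 ± 5.27 in flexor and 19.7 ± 5.47 CPM in supraspinatus tendon (SD, n = 4). P3h3 stood at 71.9 ± 36.3, 58 ± 25.5, 108 ± 9.49 and 30.1 ± 6.98 CPM, and P3h4 at 53.6 ± 38.5, 53.4 ± 31.6, 102 ± 12.7 and 23.5 ± 10.8 CPM, in the same order. The flexors exceeded the supraspinatus tendon by 1.38 ± 0.31 for P3h1, 1.84 ± 0.34 for P3h3 and 2.12 ± 0.55 for P3h4 on the log2 scale (adjusted p = 0.0022, 0.00048 and 0.0052). Flexor and supraspinatus libraries did not overlap for any of the 3. Achilles and flexor tendon did not differ past the threshold for P3h1, P3h3 or P3h4 (adjusted p = 0.86, 0.16 and 0.16). Between flexor and patellar tendon only P3h3 passed (adjusted p = 0.036), a call lost in 7 of 16 fits that left out 1 library. P3h4 did not pass between either hindlimb tendon and the supraspinatus tendon. The hindlimb tendons had a wide spread: P3h4 ran from 15.6 CPM in Achilles 1 to 107 CPM in Achilles 4 and from 17.2 CPM in patellar 1 to 88.5 CPM in patellar 4, while the flexor libraries lay between 88 and 116 CPM.

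Crtapl1, the row listed under the older symbol of the P3h1 partner Crtap, had 20.5 ± 10.6, 22 ± 10.5, 40.8 ± 4.15 and 6.58 ± 1.32 CPM in Achilles, patellar, flexor and supraspinatus tendon. The flexors exceeded the supraspinatus tendon by 2.63 ± 0.36 on the log2 scale (adjusted p = 4.9e-05), with no overlap of libraries. This row was matched by synonym only.

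Tmem38b, which encodes the ER potassium channel TRIC-B, made up the third pattern. It stood at 151, 127, 105 and 160 CPM in supraspinatus libraries, at 26.5, 34.4, 23.2 and 29.9 CPM in Achilles, at 53, 23.1, 17.5 and 19.6 in patellar and at 58.4, 46.1, 26.2 and 40.1 CPM in flexor libraries. Each supraspinatus library was above every other library, and the log2 difference of Achilles against supraspinatus tendon was -2.25 ± 0.33 (adjusted p = 6.9e-05). The muscle marker sum was 13.4 to 25.1% in those 4 libraries, and patellar 1, the highest patellar library for Tmem38b, was also the patellar library with 3.26% of muscle markers. With the muscle covariate the differences from the Achilles and patellar tendons did not pass, while flexor against supraspinatus (-1.67 ± 0.32, adjusted p = 0.00068 without the covariate) did.

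Fkbp10, which encodes the collagen chaperone FKBP65, was the procollagen folding gene that did not differ among tendons (adjusted p = 0.085). It stood at 330, 461, 331 and 427 CPM in Achilles, 240, 244, 305 and 319 in patellar, 249, 300, 378 and 277 in flexor and 329, 347, 288 and 210 CPM in supraspinatus libraries. Achilles libraries were all above patellar libraries, and the other ranges overlapped. Without flexor 3, or without TMM, the difference passed.

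Among the stress sensors and transcription factors, Creb3l1 was low in the supraspinatus tendon. It encodes OASIS, an ER-anchored factor known for driving type I collagen transcription in bone. Creb3l1 stood at 82.4, 109, 98.5 and 200 CPM in Achilles, 67, 102, 155 and 211 in patellar, 101, 136, 123 and 101 in flexor and 67.5, 53.9, 35.8 and 29 CPM in supraspinatus libraries. The supraspinatus tendon lay below the Achilles by 1.40 ± 0.36, the flexors by 1.31 ± 0.36 and the patellar tendon by 1.52 ± 0.36 on the log2 scale (adjusted p = 0.0049, 0.0075 and 0.0024). Only patellar 1 overlapped the supraspinatus range. The difference among the 4 tendons (adjusted p = 0.0072) did not pass with the muscle covariate.

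Xbp1, the target of IRE1 splicing, stood at 95.7, 162, 175 and 212 CPM in Achilles, 110, 208, 225 and 202 in patellar, 213, 233, 185 and 178 in flexor and 157, 125, 84.8 and 67.2 CPM in supraspinatus libraries. Supraspinatus 3 and 4 were the lowest, with Achilles 1 next. Its adjusted p of 0.049 among the 4 tendons was kept only when Achilles 1, Achilles 4, patellar 1 or supraspinatus 1 was the library left out, and reached 0.14 otherwise. The call was also lost with Col1a1 left out of scaling, without a filter and with a filter of 1 CPM in 8 libraries. It was lost too in the fit that blocked on the library number and with the muscle covariate. Gene counts do not tell spliced from unspliced Xbp1.

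Ern1, which encodes IRE1, had 47, 46.4, 49.9 and 43.4 CPM in flexor and 45, 46.5, 37.3 and 43.5 CPM in supraspinatus libraries, against 30.3, 39.2, 37.9 and 34.9 CPM in Achilles and 29.3, 30.8, 32.5 and 29 CPM in patellar libraries. All forelimb libraries but supraspinatus 3 were above all hindlimb libraries (forelimb higher by 0.45 ± 0.065 on the log2 scale, adjusted p = 3.8e-05). Atf4, the main transcription factor of the integrated stress response, had 362, 302, 307 and 397 CPM in supraspinatus, 272, 268, 248 and 263 in Achilles, 279, 212, 209 and 211 in patellar and 216, 208, 207 and 211 CPM in flexor libraries. The supraspinatus libraries were above all others, and the flexors were lower by 0.70 ± 0.11 (adjusted p = 0.00016). Creb3l2, a relative of Creb3l1 known to raise Sec23a in cartilage, stood at 12, 12, 11.3 and 11.5 CPM in Achilles, 14.5, 13.2, 10.9 and 13.7 in patellar, 18.9, 18, 16.8 and 14.1 in flexor and 16.4, 15.7, 12.3 and 13.6 CPM in supraspinatus libraries. The log2 difference of Achilles against flexor tendon was -0.53 ± 0.12 (adjusted p = 0.002). Atf6 (adjusted p = 0.066) and Ddit3, which encodes CHOP (0.38), did not pass among the 4 tendons. Atf6 passed with DESeq2, without TMM, and without Achilles 2, Achilles 4 or patellar 3.

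Of the export and retrieval genes, Sar1b had the smallest adjusted p among the 4 tendons (1.3e-07). It encodes the GTPase that starts COPII coat assembly. Sar1b (ENSRNOG00000004820) stood at 517, 339, 449 and 616 CPM in supraspinatus libraries, 84, 82.4, 85.7 and 85.2 in Achilles, 113, 74.9, 70.6 and 80 in patellar and 154, 121, 89.9 and 133 CPM in flexor libraries. The lowest supraspinatus library was above every other library, and supraspinatus 4 and patellar 1 were both the highest of their tendon for Sar1b and for the muscle marker sum (25.1 and 3.26%). The log2 difference of Achilles against supraspinatus tendon was -2.51 ± 0.2 (adjusted p = 1.1e-06), also past the threshold with the muscle covariate.

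The KDEL receptor genes had a hindlimb pattern. Kdelr2 stood at 371, 399, 330 and 380 CPM in Achilles, 263, 284, 317 and 327 in patellar, 185, 193, 183 and 169 in flexor and 273, 256, 226 and 182 CPM in supraspinatus libraries. The flexors lay below the Achilles by 1.02 ± 0.12 on the log2 scale (adjusted p = 1.5e-05). Kdelr3 stood at 263, 346, 294 and 405 CPM in Achilles, 155, 218, 242 and 305 in patellar, 141, 169, 149 and 134 in flexor and 175, 168, 125 and 81.3 CPM in supraspinatus libraries. The Achilles libraries were above all forelimb libraries, and the forelimb tendons were lower by 0.94 ± 0.17 (adjusted p = 0.00021).

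Among the COPII coat genes of the group, Sec24d and Sec31a did not differ past the threshold after TMM, whereas Sec23a did. Sec24d, whose product packs procollagen into COPII carriers, stood at 236, 280, 207 and 239 CPM in Achilles, 204, 187, 235 and 239 in patellar, 196, 239, 198 and 150 in flexor and 228, 222, 197 and 146 CPM in supraspinatus libraries. All 4 ranges overlapped (adjusted p = 0.29), as they did for the outer coat gene Sec31a (0.47). Without TMM both genes passed. Sec23a, the inner coat partner of Sec24d, had means of 183 ± 26, 161 ± 12.6, 145 ± 16 and 201 ± 24.6 CPM in Achilles, patellar, flexor and supraspinatus tendon (adjusted p = 0.013). Without supraspinatus 1 it did not pass (adjusted p = 0.056). Sel1l, the adaptor of the HRD1 ubiquitin ligase, stood at 203, 203, 177 and 145 CPM in Achilles, 153, 157, 168 and 148 in patellar, 213, 218, 195 and 194 in flexor and 209, 219, 198 and 206 CPM in supraspinatus libraries. Every forelimb library was above every patellar library (flexor against patellar 0.39 ± 0.1, adjusted p = 0.0056).

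The pairs of tendons gave these counts, each beside the share of all 16948 genes called the same way. Between Achilles and flexor tendon, 12 of the 38 genes were higher in the Achilles and 4 lower, against 23.5 and 24.1% of all genes. Those higher included Serpinh1, Ppib, Fkbp14, P4hb, Kdelr2 and Kdelr3, and those lower were Dnajb9, Ern1, Creb3l2 and Sar1b. The call of Sar1b was lost without Achilles 1, 2 or 3 or flexor 1, 2 or 4 (adjusted p up to 0.11), whereas the other 9 genes named here kept theirs without any single library. Between Achilles and supraspinatus tendon, 12 were higher and 6 lower in the Achilles, against 25.4 and 24.7%, and the higher ones held 7 of the 10 procollagen folding genes. Between flexor and patellar tendon, 7 were higher and 5 lower in the flexors, against 25.8 and 24.7%.

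Between flexor and supraspinatus tendon, 8 genes were higher and 5 lower in the flexors, against 23.4 and 24.3%. Between patellar and supraspinatus tendon, 10 were higher and 8 lower in the patellar tendon, against 28.8 and 27.5%. The forelimb against the hindlimb tendons had 7 genes higher and 12 lower, against 30.3 and 28.5%. The median log2 difference of the 38 genes was 0.10 for Achilles against flexor and -0.06 for forelimb against hindlimb, where all genes had 0.01 and 0.02. No gene differed between Achilles and patellar tendon in edgeR, against 3.1 and 2.06% of all genes called higher and lower in the Achilles. At an unadjusted p under 0.05 there were 8 of 38, and DESeq2 and limma-voom each called 1. Some shares were near the background and others were not, such as the 5 of 38 genes lower in the flexors than in the supraspinatus tendon, against 24.3%. No share was tested against the background, so the counts are not read as a result about these genes as a group.

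**Figure D2:**
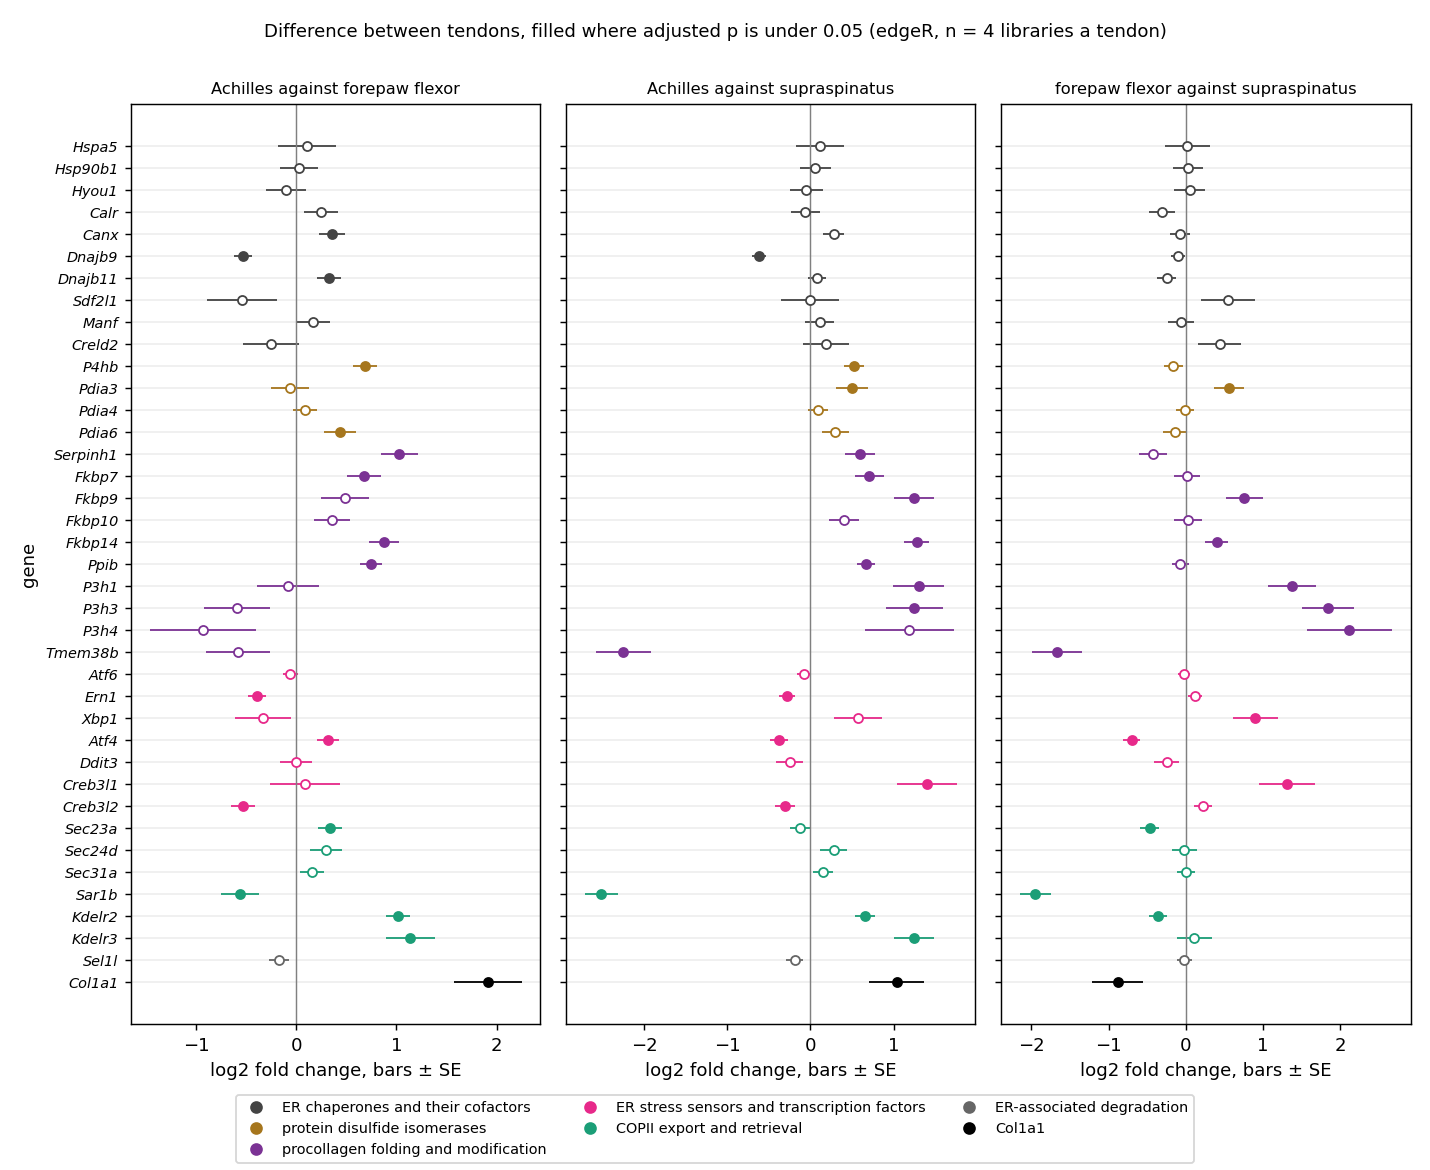
Log2 fold change of each of the 38 genes and Col1a1 in 3 pairs of tendons (panels), points ± SE, coloured by role and filled where the adjusted p was under 0.05. Col1a1 and Serpinh1 lie to the right for Achilles against flexor (1.91 and 1.03), P3h3 and P3h4 lie to the right for flexor against supraspinatus (1.84 and 2.12), and Sar1b lies far to the left in both supraspinatus panels (-2.51 and -1.95).

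The calls of the supraspinatus pairs changed with the muscle covariate and with scaling. Muscle markers were at 13.4 to 25.1% in supraspinatus libraries and at most 6.31% in the others. The covariate thus goes with the tendon, and a lost call cannot be assigned to muscle or to tendon. With the muscle covariate 3 genes remained called for Achilles against supraspinatus (1 higher, 2 lower), 2 for patellar against supraspinatus (both lower) and 4 for forelimb against hindlimb (2 higher, 2 lower). For Achilles against flexor 8 remained (7 and 1) and for flexor against patellar 5 (3 and 2). Among those no longer called were the forelimb differences of Ppib, Fkbp7, Fkbp9, Ern1 and Kdelr3, the differences of Creb3l1 between the supraspinatus and both hindlimb tendons, and that of Creb3l2 between Achilles and flexors. Without TMM the median of all genes shifted to 0.466 for Achilles against supraspinatus, 0.46 for patellar against supraspinatus, 0.314 for flexor against supraspinatus and -0.22 for forelimb against hindlimb. The splits of higher and lower calls were then 23 and 2, 20 and 3, 14 and 3, and 4 and 19, and 5 and 7 for flexor against patellar. The 16 calls of Achilles against flexor kept their split of 12 and 4 without TMM.

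Relative to Col1a1, the flexors carried more of nearly every one of the 38 genes, as they did of most genes. As counts per 1000 Col1a1 counts, 36 of the 38 genes had their highest mean in the flexors. This compares with 80.2% of the 14741 genes, all but Col1a1, that reached 1 CPM. Tmem38b and Sar1b had their highest mean in the supraspinatus tendon. For 35 genes every flexor library was above every hindlimb library, against 75.9%. Every flexor library also had less Col1a1 than every hindlimb library, so that a gene of equal CPM would separate in the same direction, and the counts are not read as particular to these genes. In a fit that replaced the library size by the Col1a1 count, 37 of 38 genes differed among tendons, against 89.2% of all genes. The median ratio of flexor to Achilles was 3.22, with 1.65 for Kdelr3, 1.73 for Serpinh1, 1.75 for Kdelr2 and 7.71 for P3h4.

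Serpinh1 was the exception, with an adjusted p of 0.13. Its ratio was 21.5, 14.5, 18.9 and 10.6 per 1000 in Achilles, 25.5, 21.6, 21 and 16.1 in patellar, 33.2, 26.8, 22.9 and 30.5 in flexor and 19.1, 18, 25 and 22.1 per 1000 in supraspinatus libraries. Flexor libraries were above Achilles libraries, and the other ranges overlapped, so a p over the threshold does not show a constant ratio. Hspa5 had ratios of 9.47 ± 4.74, 7.62 ± 2.46, 29.6 ± 13.3 and 15.7 ± 2.5 in Achilles, patellar, flexor and supraspinatus tendon (SD, n = 4, adjusted p = 0.00042). P3h3 had 0.834 ± 0.246, 0.78 ± 0.0957, 4.88 ± 0.74 and 0.74 ± 0.0836 (adjusted p = 8.7e-09), so that the 3 other tendons had like ratios to Col1a1 and the flexors stood apart.

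**Figure D3:**
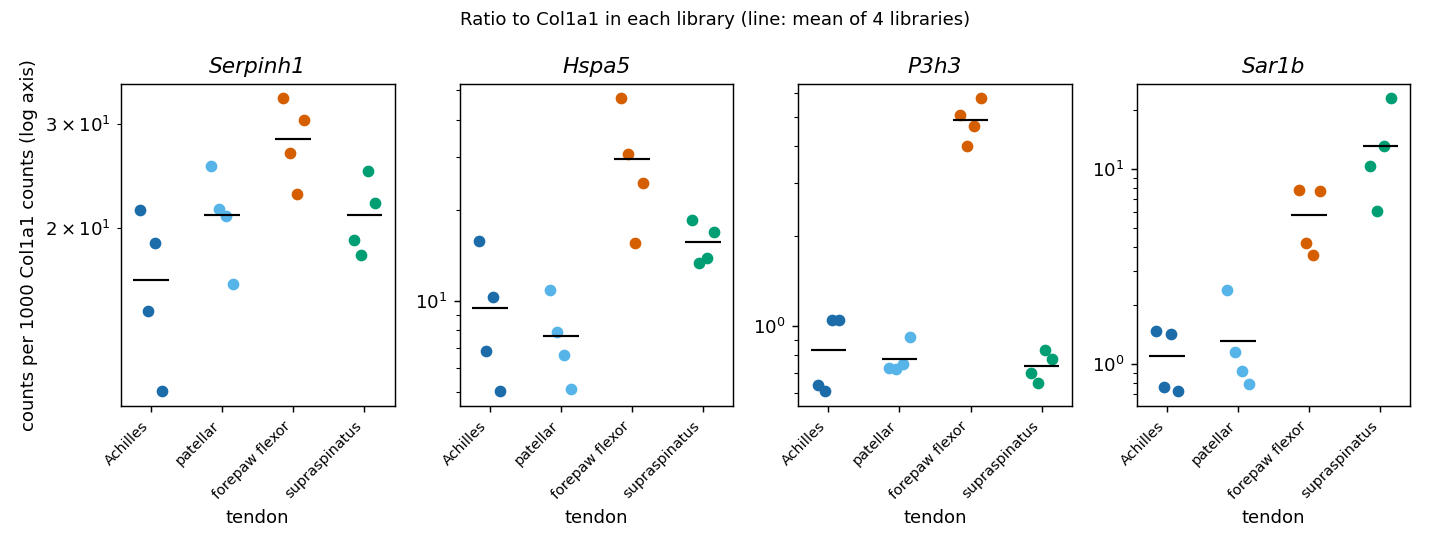
Counts per 1000 Col1a1 counts (log axis) of Serpinh1, Hspa5, P3h3 and Sar1b in each library, by tendon, with a line at the mean of 4 libraries. The flexor mean of P3h3 is 4.88 against 0.74 to 0.834 in the other tendons, whereas the means of Serpinh1 lie between 16.4 and 28.3.

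Within tendons, part of the group followed Col1a1 from library to library. The slope, fitted with the tendon as a factor over 16 libraries (11 residual degrees of freedom, 16947 genes), is the change of a gene's log2 level per unit of log2 Col1a1. It was positive and past the threshold for 16 of 38 genes, against 3.51% of all genes, and negative for 0, against 1.12%. The unadjusted p was under 0.05 for 21 of 38 genes, with DESeq2 calling 20 and limma-voom 18 positive slopes and neither a negative one. The median slope was 0.28 over the 38 genes and -0.02 over all genes.

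By role, 8 of 10 procollagen folding genes had a called slope, 5 of 6 export and retrieval genes, 2 of 7 sensors and factors (Creb3l1 and Xbp1), 1 of 4 isomerases (Pdia3), and none of the 10 chaperones in edgeR, of which 2 had an unadjusted p under 0.05. P3h4 had the steepest slope at 1.5 ± 0.29, followed by Creb3l1 at 1.06 ± 0.15, P3h3 at 0.94 ± 0.16 and P3h1 at 0.89 ± 0.15 (± SE, adjusted p = 0.018, 0.0058, 0.011 and 0.0086). Kdelr3 had 0.71 ± 0.098 and Fkbp9 0.69 ± 0.11 (adjusted p = 0.0058 and 0.0074). Serpinh1 had 0.43 ± 0.11 and Sec24d 0.39 ± 0.1 (adjusted p = 0.048 for each). Hspa5 had 0.24 ± 0.26 (adjusted p = 0.59), and Sar1b and Tmem38b had negative values of -0.33 ± 0.15 and -0.32 ± 0.27 that did not pass (0.16 and 0.48).

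**Figure D4:**
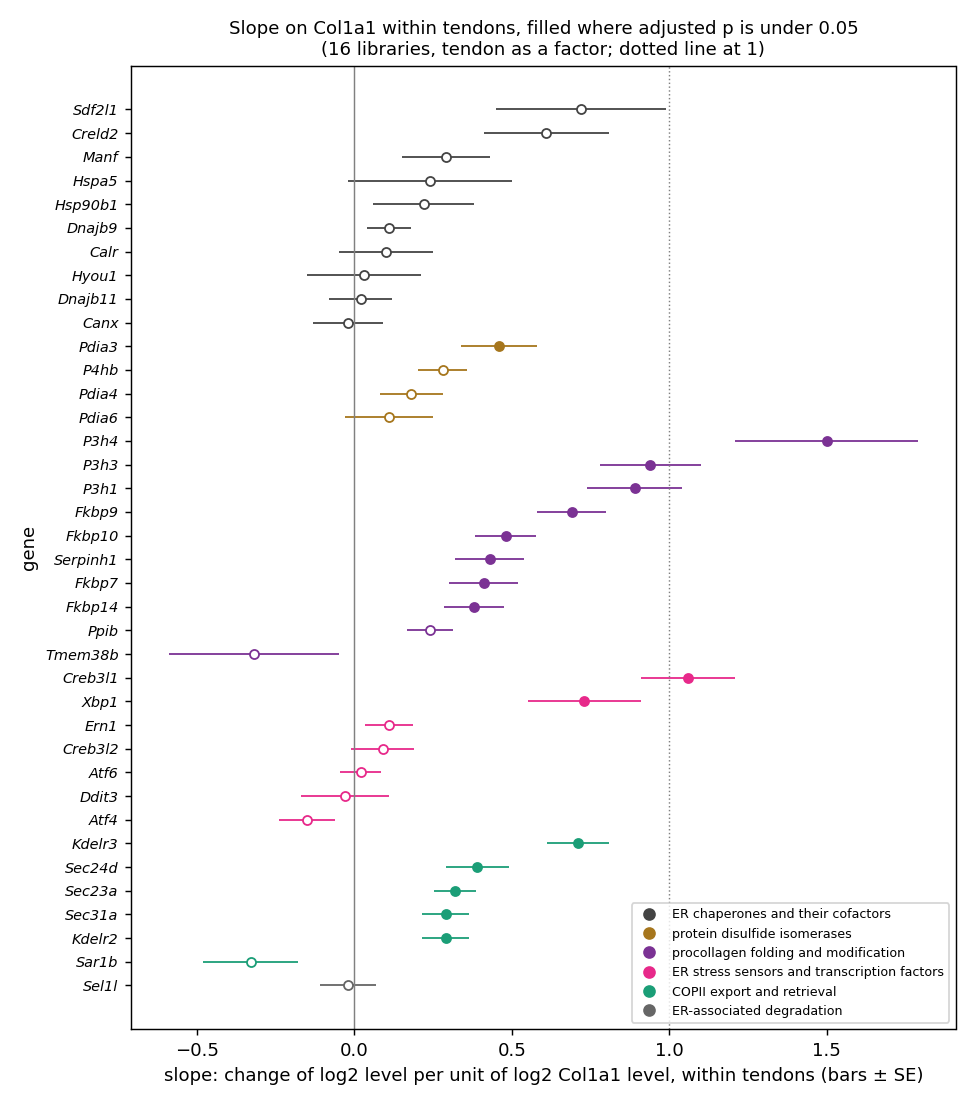
Slope on Col1a1 within tendons of each of the 38 genes ± SE, grouped by role and filled where the adjusted p was under 0.05, with a dotted line at 1. P3h4 (1.5) and Creb3l1 (1.06) lie highest, the 16 filled points are all above 0, and no chaperone is filled.

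The number of called slopes changed with single libraries. With 1 library left out the count was 5 without supraspinatus 4, 6 without patellar 1, 7 without patellar 4, and 8 without Achilles 1, Achilles 4, patellar 3, flexor 4, supraspinatus 1 or supraspinatus 2. It was 9 without patellar 2 or flexor 1, 10 without supraspinatus 3, 11 without flexor 2, 12 without Achilles 2 or flexor 3, and 19 without Achilles 3. Fkbp9, P3h1, P3h3, Creb3l1 and Kdelr3 kept a called slope in each of these 16 fits. Fkbp10 lost it without supraspinatus 4, P3h4 without Achilles 4, patellar 1 or supraspinatus 4, and Sec23a without Achilles 1, patellar 1, patellar 4 or supraspinatus 4 (adjusted p up to 0.063, 0.073 and 0.063), and the other 8 genes lost it in 11 to 15 of the 16 fits.

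Without Achilles 1 and patellar 1 together, a choice made after seeing the data, edgeR called 0 of 38 slopes, against 0.229% of all genes, with 22 at an unadjusted p under 0.05. Leaving out a whole tendon gave 7 without the Achilles, 0 without the patellar tendon, 8 without the flexors and 0 without the supraspinatus tendon. At an unadjusted p under 0.05 these counts were 23, 19, 20 and 17. All 16 slopes called over the full set were above 0 in each of the 30 alternatives run, and the median of the 38 slopes stayed between 0.161 and 0.345. The 6 tendon fibroblast genes besides Col1a1 also had called slopes (0.78 to 1.59), and 3 of 8 adipocyte markers and 1 of 7 endothelial markers had called negative ones. Whether the share of fibroblast RNA in each library underlies the slopes was not tested.

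**Figure D5:**
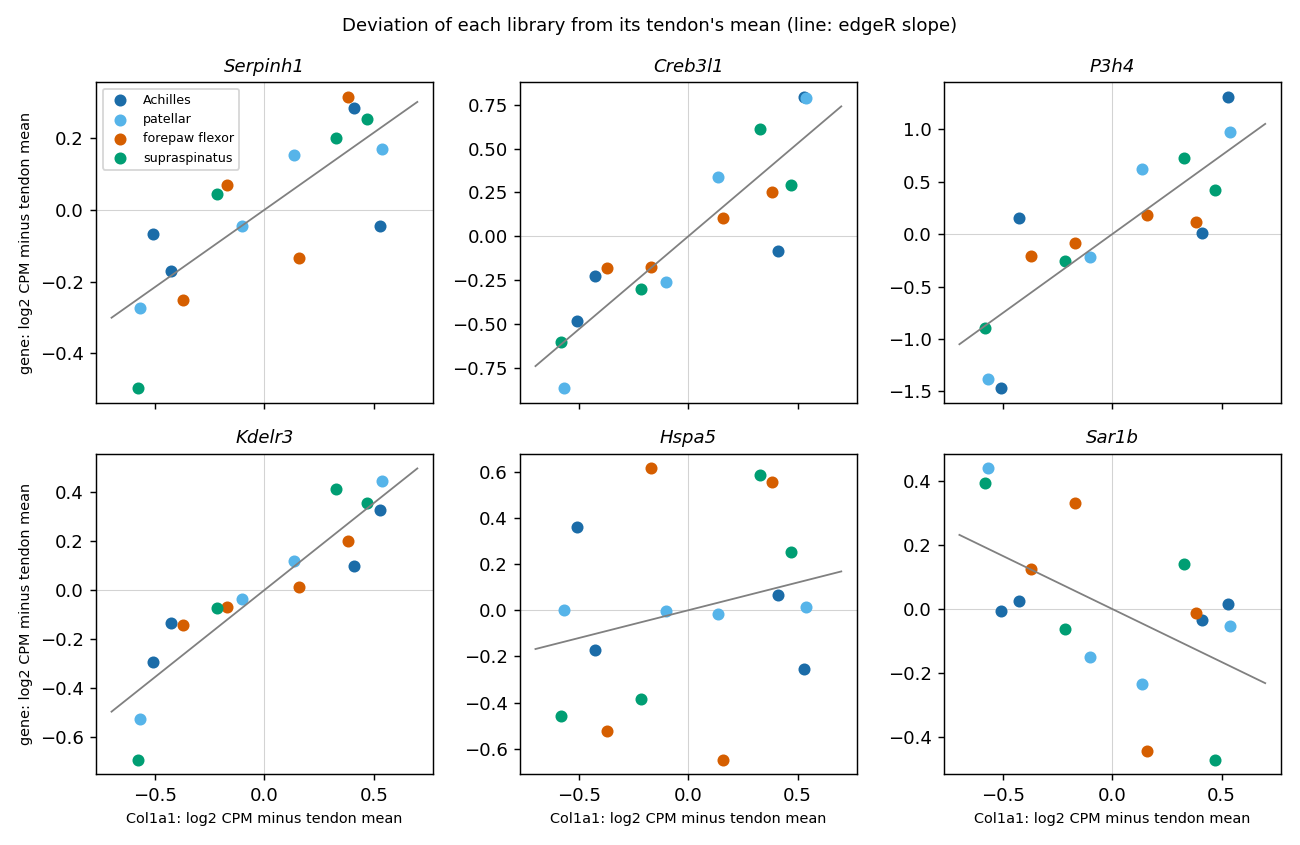
Deviation of each library from its tendon's mean log2 CPM for Serpinh1, Creb3l1, P3h4, Kdelr3, Hspa5 and Sar1b (vertical) against that of Col1a1 (horizontal), coloured by tendon, with the edgeR slope as a line. P3h4 is at -1.47 in Achilles 1 and 1.307 in Achilles 4, where Col1a1 is at -0.51 and 0.529. In Achilles 2 and 3 P3h4 is at 0.008 and 0.156, where Col1a1 is at 0.41 and -0.429, the opposite order. The slope of Hspa5 did not pass the threshold.

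Other genes of the same pathways were measured from lists chosen with the group. Of 111 found, 110 were tested and 91 differed among the 4 tendons, against 75.6% of all genes. A called positive slope on Col1a1 was found for 24, against 3.51%, and a negative one for 0, against 1.12% (edgeR, 49 at an unadjusted p under 0.05 in either direction). Between Achilles and flexor tendon 54 of the 110 were higher in the Achilles and 17 lower, against 23.5 and 24.1% of all genes. The forelimb tendons had 18 higher and 50 lower than the hindlimb tendons, against 30.3 and 28.5%. Counts for these 110 genes were not taken with libraries left out, without TMM or with the muscle covariate, settings that changed the counts of the members.

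The translocon-associated genes Ssr1 and Ssr2 were highest in the Achilles, at 246 ± 11.1 and 216 ± 8.85 CPM. They were low in both forelimb tendons, at 118 ± 11.5 and 110 ± 4.89 CPM in flexor and 125 ± 6.16 and 119 ± 11.5 CPM in supraspinatus tendon. Flexor and supraspinatus tendon did not differ past the threshold (adjusted p = 0.4 and 0.26). The lumenal chaperone Erp29 stood at 63.8 ± 3.27 CPM in Achilles and 67.9 ± 9.16 in patellar against 33.6 ± 2.72 in flexor and 39.6 ± 5.03 CPM in supraspinatus tendon. The COPII gene Sec13 and the SNARE gene Sec22b were higher in the Achilles than in the flexors by 1.05 ± 0.089 and 0.83 ± 0.087 on the log2 scale (adjusted p = 9.2e-07 and 5.3e-06). Both were also higher in the Achilles than in the supraspinatus tendon, by 0.76 ± 0.088 and 0.83 ± 0.087 (adjusted p = 1.2e-05 and 5.6e-06). Of the stress response genes, Asns, an ATF4 target for asparagine synthesis, stood at 60.6 ± 19.4 and 60.5 ± 17.1 CPM in Achilles and patellar against 13.8 ± 1.41 and 17.4 ± 3.88 CPM in flexor and supraspinatus tendon.

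Some pathway genes were flexor genes. P4ha3, an α subunit of collagen prolyl 4-hydroxylase, stood at 98.2 ± 17.6 CPM in flexor and 10.4 ± 5.27 in supraspinatus against 3.11 ± 1.81 and 3.17 ± 2.59 CPM in Achilles and patellar tendon (adjusted p = 2.1e-06). Colgalt2, a collagen galactosyltransferase gene, stood at 35.2 ± 7.44 CPM in the flexors against 4.31 ± 1.12 CPM in the Achilles. Genes highest in the supraspinatus tendon were the cargo receptor gene Lman2 (199 ± 4.47 CPM) and the ubiquitin-conjugating enzyme gene Ube2g2 (163 ± 14.3 CPM), whereas Trib3 was lowest there at 2.5 ± 0.48 CPM against 7.62 to 9.16 CPM on average in the other tendons.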

How the data were processed

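Gene counts in 16 libraries of 4 rat tendons were analysed as the authors deposited them, unnormalised counts with 1 column for each library. The submitters' processing notes name HISAT2, FastQC, edgeR and rn6 but no version. The counter, the annotation release and strandedness were not given in the sources used here, so antisense partners and near-identical copies may share reads. The authors' table of pairwise tests was not used. Members and lists were chosen with earlier results of these data known.

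Genes passing filterByExpr (minimum count 10, total 15) were scaled by TMM (factors 0.731 to 1.162) and fitted by quasi-likelihood in edgeR 4.0.16 on R 4.3.3, with 1 coefficient per tendon and 12 residual degrees of freedom. P-values were adjusted within each comparison by the Benjamini-Hochberg method, at 0.05. The SE is the size of the log2 value over the square root of F, and CPM means and SDs are on the TMM scale. The slope fit added centred log2 CPM of Col1a1 to the tendons. The ratio fit used the Col1a1 count as library size, and both left Col1a1 out of the genes tested. Fits were tested on simulated data with known changes and slopes. No library pair was identical.

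Library values are given for 7 genes (Serpinh1, Hspa5, Creb3l1, Xbp1, Fkbp10, P4hb, Sec24d) and up to 3 more per role with the smallest adjusted p among the 4 tendons. Other pathway genes are named if among the 2 smallest of their list with at least 5 CPM in the highest tendon. Alternatives were median-of-ratios size factors, plain totals, Col1a1 left out of scaling, DESeq2 1.42.0, limma-voom 3.58.1, no filter, 1 CPM in 8 libraries, a replicate block, a muscle covariate and each library left out. Added after seeing the data were leaving out Achilles 1 with patellar 1, each tendon in the slope fit, and Col1a1 left out of scaling in the slope fit. Promoters came from RefSeq (GRCr8). Figures used matplotlib 3.10.9.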

Additional observations from a re-analysis of the deposited data

Results flagged for a closer look

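In 5 of 156 sets of 4 libraries, 1 library lay apart from the other 3 by more than Dixon's 95% critical value for 4 samples, which chance alone exceeds in about 1 of 20 sets. Fkbp7 was at 59.4 CPM in patellar 1 and at 93.9 to 94.7 CPM in the other patellar libraries. Tmem38b was at 53 CPM in patellar 1 against 17.5 to 23.1 CPM, and Atf4 at 279 CPM there against 209 to 212 CPM. Patellar 1 also had a muscle marker sum of 3.26% against at most 0.451% in the other patellar libraries, and the part of muscle in these values was not tested. Fkbp14 was at 27.3 CPM in supraspinatus 4 against 33.8 to 34.4 CPM. Atf6 was at 93.2 CPM in patellar 3 against 82.9 to 83.7 CPM.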

How the results depend on the processing

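Counts of called genes stayed within 1.5 times of those given, except as follows. With the muscle covariate there were 8 for Achilles against flexor, 3 for Achilles against supraspinatus, 5 for flexor against patellar, 2 for patellar against supraspinatus and 4 for forelimb against hindlimb. Achilles against patellar went from 0 to 1 with median-of-ratios size factors, DESeq2, limma-voom, the filter of 1 CPM in 8 libraries and the replicate block, and ran from 0 to 1 with 1 library left out. The 16 called slopes became 9 without TMM, 10 without a filter, 5 to 19 with 1 library left out and 0 without Achilles 1 and patellar 1. They became 7, 0, 8 and 0 without the Achilles, patellar, flexor and supraspinatus tendons. The causes were not tested, beyond the fewer samples of these fits. The replicate block gave 24 genes among the 4 tendons in place of 22, and 17 slopes in place of 16. Canx and Hyou1 (adjusted p = 0.033 and 0.034) and Pdia6 then passed among the 4 tendons, and Xbp1 did not. Same-numbered libraries correlated in their deviations by over 0.1 in 9 of 24 pairs (-0.21 to 0.37). Pairs of different number were not set beside them, so this does not exclude that the numbers pair samples. The numbers were not taken to pair samples because the labels do not say so. Without TMM, 7 single differences changed sign: Achilles against supraspinatus became 0.14 for Ern1, 0.04 for Atf4 and 0.11 for Creb3l2, patellar against supraspinatus became 0.2 for Atf6, 0.09 for Sec23a and 0.01 for Sel1l, and forelimb against hindlimb became -0.1 for Atf6 (log2). Apart from these, 1353 of the single-gene results kept their side of the threshold over the settings with no single library left out, 194 lost it and 17 gained it. With 1 library left out, 2142 kept it, 265 lost it and 9 gained it. Only results called at the main settings were followed, plus all 38 genes among the 4 tendons and Serpinh1 relative to Col1a1. Other comparisons could therefore lose a call but not gain one. Each of the 38 genes had at least 514 counts in every library.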
